A study of Bos grunniens x Bos taurus and Bos grunniens with 6 samples.

Results

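The genes described here encode subunits of cullin-RING ubiquitin ligases, and their mRNA was measured in the testis of cattle-yak and yak. A gene was taken as a member by its symbol alone, that is CUL, KLHL, KBTBD, KLHDC, FBXW, FBXL, FBXO or ASB followed by a number, together with SKP1, SKP2, RBX1, ELOB, ELOC and BTRC. This rule used no measured value and found 156 of the 18918 genes of the deposited table, which carry 139 symbols. The members are 6 cullin genes, 13 genes of the RING subunit RBX1 and the adaptors SKP1, ELOB and ELOC, 37 KLHL, 9 KBTBD, 6 KLHDC, 9 FBXW (with BTRC), 20 FBXL (with SKP2), 39 FBXO and 17 ASB genes. RNA-seq libraries of whole testis came from 3 cattle-yak (TES5, TES6 and TES7), which were F1 males of a Jersey bull and a Gannan yak cow, and from 3 Gannan yak males (Yak8, Yak9 and Yak10), with 1 animal per library and every animal 4 years old. The study set the sterile hybrid beside the fertile yak after sexual maturity. The groups were kept in different counties, and cattle-yak were castrated whereas yak were euthanised to collect the testes, so that hybrid origin, place and way of collection cannot be told apart here. Reads of both groups had been mapped to the yak genome (LU_Bosgru_v3.0).

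A cullin is the elongated scaffold of such a ligase. At one end it carries the RING protein RBX1, which brings in the ubiquitin-loaded conjugating enzyme, and at the other an adaptor with an exchangeable substrate receptor that decides which protein is marked for the proteasome. CUL1 takes F-box proteins through SKP1, CUL3 takes BTB-kelch proteins such as the KLHL and KBTBD families directly, and CUL2 and CUL5 take SOCS-box and related receptors, ASB and several KLHDC proteins among them, through elongin B and elongin C (ELOB and ELOC). Several receptors are known from the testis, where the meiotic divisions and the removal of cytoplasm and histones from the spermatid depend on timed protein degradation.

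Levels are given as FPKM, fragments per kilobase of gene model and per unit of sequencing depth, so that levels of different genes can be set side by side per length. Behind them stood 11175100 to 11834987 fragments on genes per cattle-yak library and 12991641 to 13136129 per yak library, and 1 fragment on 1 kb was worth 0.0761 to 0.0895 FPKM. Fold changes are differences of log2(FPKM + 1), cattle-yak minus yak, and understate the change of low genes. A gene was called with a Benjamini-Hochberg adjusted p under 0.05 from limma and a log2 fold change beyond 1 in either direction, among 15042 genes with a mean of at least 0.5 FPKM. Of these genes 33.4% were called higher and 20.8% lower in cattle-yak, the values of the groups did not overlap in 84.1%, and the median log2 fold change was 0.51. This median went to 0.01 with libraries rescaled by median-of-ratios size factors, so a member near 0.51 had changed no more than the typical gene. The same rescaling called 17.4% of all genes higher and 27.9% lower, so the balance of the directions depends on the scaling. The paper, with DESeq at the same thresholds, reported more genes lower than higher in cattle-yak. In whole tissue, fewer cells of a type and less RNA per cell cannot be told apart. Marker lists of cell types differed in their shift between the groups. The median log2 fold change was 2.21 for 14 Sertoli cell genes, 1.98 for 6 Leydig cell genes, 2.01 for 6 myoid cell genes and 1.95 for 7 spermatogonial genes. It was −0.14 for 8 spermatocyte genes, −4.42 for 5 round spermatid genes and −7.70 for 7 elongating spermatid genes. Of 6 endothelial genes 3 were called higher and 1 lower (median 0.98), and of 5 macrophage genes 2 higher and 2 lower (median 0.90). The part of cell composition in the results below was not tested.

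Ligase subunit genes were called in both directions, with falls that reached further than the rises, as in the whole table, where the range was −8.27 to 4.98. Of 140 members tested, 47 (33.6%, against 33.4% of all genes) were called higher and 29 (20.7%, against 20.8%) lower, so that neither share stood apart from the whole table. The groups did not overlap in 117 members (83.6%, against 84.1%). All 76 called members were among them, but the calls used the same values, so this is no separate result. The median log2 fold change over the members was 0.41, and the range went from −6.73 for ASB17 to 2.96 for a copy of ELOB. A fall by more than 2 on the log2 scale was seen in 14 members (10%, against 11.6% of all genes) and a rise by more than 2 in 10 (7.14%, against 7.75%). Beyond 3 there were 11 falls (7.86%, against 6.70%) and 0 rises (0.406% of all genes). With median-of-ratios scaling the members divided into 26 higher (18.6%) and 38 lower (27.1%), against 17.4% and 27.9% of all genes, and their median was −0.14. The members called lower had a median of 29.95 FPKM in yak and 1.75 in cattle-yak, and those called higher 4.80 in yak and 19.5 in cattle-yak. The calls were made on these same values, so the contrast of these medians is built in and only describes the levels. Such medians over all called genes were not taken.

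**Figure D1:**
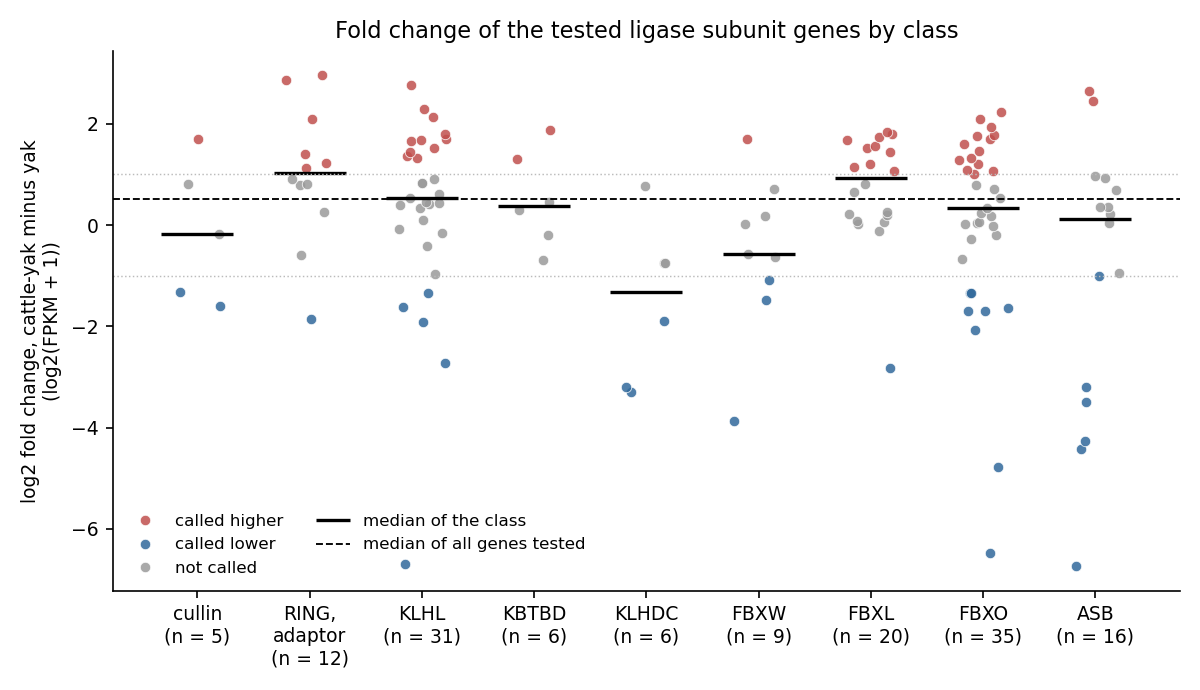
Log2 fold change (cattle-yak minus yak, on log2(FPKM + 1)) of the 140 tested genes, 1 point per gene, by class of subunit. Red points were called higher, blue points lower and grey points were not called; black bars are class medians, the dashed line is the median of all 15042 genes tested (0.51) and the dotted lines mark the threshold of 1 in both directions. The KLHL, FBXO and ASB classes each hold a gene below −6, and no gene is above 3.

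Summed over its genes, the KLHDC class differed most between the groups, with 192 ± 33.2 FPKM against 754 ± 26.5 (SD, n = 3, cattle-yak first), a ratio of 0.254. The cullins summed to 308 ± 6.60 FPKM against 489 ± 5.14, a ratio of 0.630, and the KLHL genes to 426 ± 16.1 against 546 ± 38.1. Higher sums in cattle-yak were those of the FBXL class, with 377 ± 4.49 FPKM against 238 ± 21.0, and of the KBTBD class, with 153 ± 8.06 against 98.8 ± 7.03. After median-of-ratios scaling the ratio of these classes was 1.03 and 1.01 and the groups overlapped, while the ratio of the KLHDC class was 0.165 and that of the cullins 0.408. The FBXO class overlapped between the groups as deposited, at 658 ± 19.9 FPKM against 692 ± 33.2. Of its 35 tested genes 14 were called higher (40%, against 33.4% of all genes) and 8 lower (22.9%, against 20.8%). With median-of-ratios scaling the FBXO sums of the groups did not overlap, at a ratio of 0.616. RBX1 and the adaptors summed to 1156 ± 61.1 FPKM in cattle-yak against 1019 ± 64.3, an excess that turned into a ratio of 0.735 with median-of-ratios scaling.

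**Figure D2:**
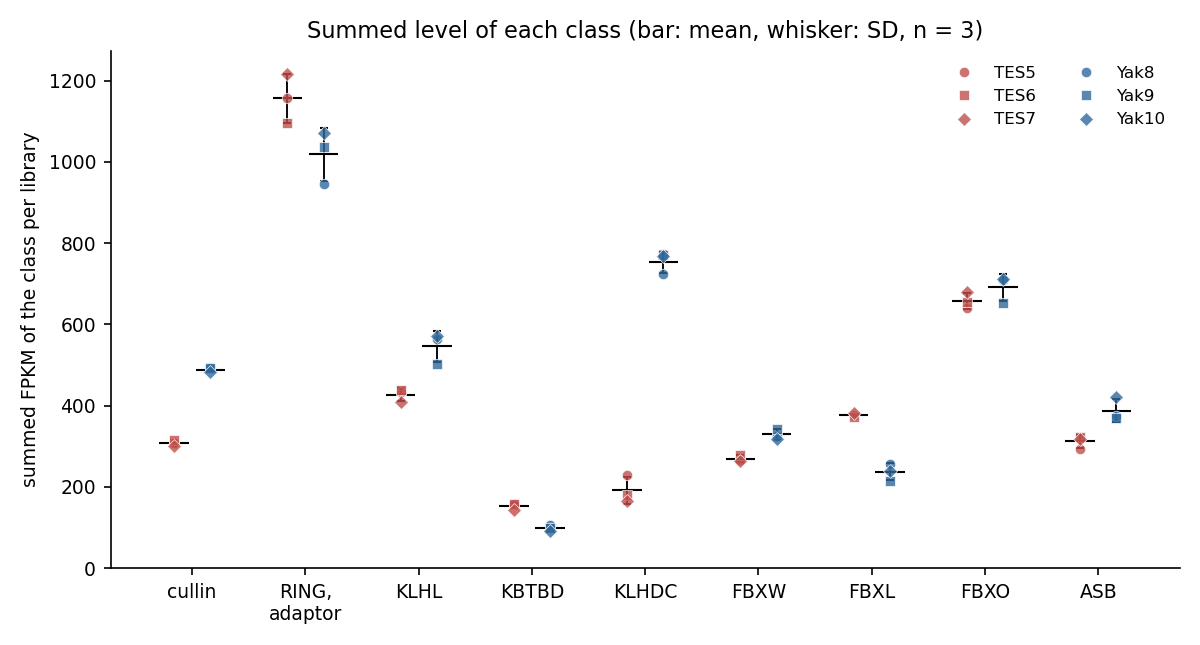
Summed FPKM of the genes of each class in each library, with the mean (bar) and SD (whisker) of the 3 animals of a group. The KLHDC sums of cattle-yak are far below those of yak (ratio 0.254), whereas the FBXO sums of the groups overlap on this deposited scale.

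The scaffolds changed in composition. CUL1 and CUL3 fell, CUL7 rose, and CUL4A and CUL5 were not called, so that CUL3 made up 55.5% ± 2.23 (SD, n = 3) of the summed cullin FPKM in yak and 29.0% ± 3.34 in cattle-yak, and CUL4A 13.2% ± 0.71 in yak and 36.9% ± 1.11 in cattle-yak. CUL3 (ENSBGRG00000015353), the scaffold of the KLHL and KBTBD receptors, had 99.6 FPKM in TES5, 80.99 in TES6 and 87.5 in TES7, against 284 in Yak8, 263 in Yak9 and 268 in Yak10. The mean in yak was 3.04 times that in cattle-yak, without overlap, and the log2 fold change was −1.598 (standard error 0.102, adjusted p = 2.4e-06 from limma). CUL1 (ENSBGRG00000012528), the scaffold of the F-box proteins, had 44.7 FPKM in TES5, 48.9 in TES6 and 45.8 in TES7, against 109 in Yak8, 127 in Yak9 and 117 in Yak10. Every cattle-yak library lay far under every yak library, with a log2 fold change of −1.32 (adjusted p = 4.5e-06 from limma). CUL7 (ENSBGRG00000020196), which works with the F-box protein FBXW8 and is mutated in a human growth disorder, had 31.5 FPKM in TES5, 43.4 in TES6 and 36.5 in TES7, against 10.3 in Yak8, 9.297 in Yak9 and 12.4 in Yak10, a log2 fold change of 1.71 (adjusted p = 1.5e-05 from limma). CUL4A (ENSBGRG00000015961), the scaffold of DDB1-bound receptors, had 114 ± 5.77 FPKM in the cattle-yak and 64.6 ± 3.66 in the yak libraries (SD, n = 3), without overlap but with a log2 fold change of 0.81, under the threshold. CUL5 (ENSBGRG00000015749), a scaffold of SOCS-box receptors, had 21.4 ± 1.22 FPKM in the cattle-yak and 24.3 ± 1.71 in the yak libraries (SD, n = 3), and the groups overlapped (log2 fold change −0.18, 95% interval −0.42 to 0.07). A second gene with the symbol CUL1 (ENSBGRG00000019597) had at most 0.0388 FPKM in a library and was not tested. CUL2 and CUL4B were not analysed here.

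The RING subunit RBX1 and the adaptors SKP1 and ELOC had higher sums in cattle-yak, whereas ELOB had a lower one, and each of these symbols stands on several genes. How reads shared by genes of 1 symbol were counted is not given in the sources used here, and the sequences of the genes were not compared, so the values of single genes are uncertain and the sum over the symbol is given first. The 5 genes named SKP1, the bridge between CUL1 and the F-box, summed to 378 ± 17.03 FPKM in the cattle-yak and 174 ± 9.19 in the yak libraries (SD, n = 3), a ratio of 2.17 (1.404 with median-of-ratios scaling). Both genes named RBX1 summed to 58.5 ± 6.52 FPKM against 20.8 ± 1.30, and both named ELOC to 215 ± 20.7 against 90.8 ± 3.47. The 4 genes named ELOB moved the other way as a sum, with 505 ± 23.7 FPKM in cattle-yak against 733 ± 62.3. The direction of these 4 sums was the same with median-of-ratios and with quantile scaling, and each sum kept the groups apart.

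Single adaptor copies differed widely in their change. The most abundant ELOB (ENSBGRG00000013940), which was the most abundant of all members in both groups, had 492 FPKM in TES5, 457 in TES6 and 497 in TES7, against 654 in Yak8, 759.6 in Yak9 and 765 in Yak10, lower in every cattle-yak library but with a log2 fold change of −0.59, under the threshold (−1.22 and called with median-of-ratios scaling). Another ELOB (ENSBGRG00000000020) had 25.3 FPKM in TES5, 21.1 in TES6 and 22.9 in TES7, against 2.13 in Yak8, 2.78 in Yak9 and 1.51 in Yak10, and its log2 fold change of 2.96 (adjusted p = 1.6e-06 from limma) was the largest rise among the members. A further ELOB (ENSBGRG00000024529) averaged 0.496 ± 0.341 FPKM over the cattle-yak and 4.38 ± 1.11 over the yak libraries (SD, n = 3), a log2 fold change of −1.85, and the gene ENSBGRG00000006596 was at 0 except for 0.169 FPKM in Yak8. The more abundant ELOC (ENSBGRG00000015189) had 208 FPKM in TES5, 182 in TES6 and 221 in TES7, against 85.9 in Yak8, 81.9 in Yak9 and 90.7 in Yak10 and rose by 1.23 on the log2 scale (adjusted p = 9.7e-06 from limma), and the other ELOC by 1.12; both were under 1 with median-of-ratios scaling. Of the RBX1 genes, the more abundant (ENSBGRG00000006304) had 35.8 ± 2.96 FPKM in the cattle-yak and 18.5 ± 2.01 in the yak libraries (SD, n = 3) and a log2 fold change of 0.92, just under the threshold, which it passed at 1.0001 without Yak10. The other RBX1 (ENSBGRG00000008714) rose by 2.86, from 2.28 ± 0.716 FPKM (SD, n = 3) in yak to 22.7 ± 4.02 in cattle-yak. The SKP1 genes had log2 fold changes of 0.82, 1.41, 0.79, 2.09 and 0.25 in the order of their mean FPKM. The second and the fourth of them were called, but the second had 0.79 with median-of-ratios scaling and lost its call. The smallest value, 0.25, belongs to a copy whose groups overlapped, and it turned to −0.31 with median-of-ratios and −0.06 with quantile scaling.

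**Figure D3:**
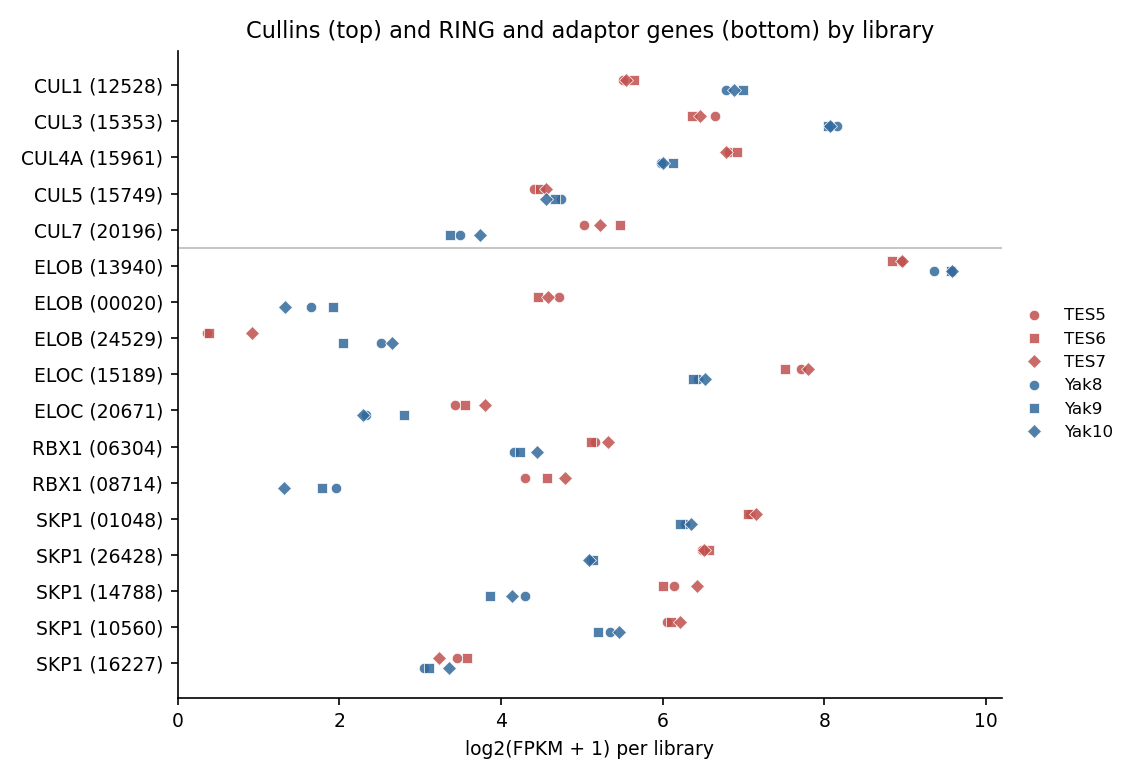
Level of each tested cullin, RING and adaptor gene in each library, as log2(FPKM + 1); the digits in brackets are the end of the gene identifier, red symbols are cattle-yak and blue symbols yak libraries. CUL1 and CUL3 lie lower in the cattle-yak libraries, whereas RBX1, ELOC and 4 of the 5 SKP1 genes lie higher.

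Among the BTB-kelch receptors of CUL3, KLHL10 had the largest fall. Of 31 KLHL genes tested, 11 were called higher (35.5%, against 33.4% of all genes) and 5 lower (16.1%, against 20.8%). Their median log2 fold change was 0.54 beside 0.51 for all genes (−0.06 with median-of-ratios scaling). KLHL10 (ENSBGRG00000014148), which is made in male germ cells, joins CUL3 in spermatids and is needed for male fertility in mice, had 3.28 FPKM in TES5, 1.62 in TES6 and 0.613 in TES7, against 268 in Yak8, 256 in Yak9 and 294 in Yak10. The lowest yak library exceeded the highest cattle-yak library 77.9 times, and the recovered fragments numbered 71 in TES5, 33 in TES6 and 13 in TES7, against 6421, 6128 and 6980 in the yak libraries. Its log2 fold change was −6.701 (standard error 0.305, adjusted p = 4.9e-07 from limma), next to −4.42 for the round spermatid markers. In yak KLHL10 alone held 49.9% ± 2.24 (SD, n = 3) of the FPKM of its class, and in cattle-yak 0.426% ± 0.309. KLHL41 (ENSBGRG00000006517), known from the sarcomere of skeletal muscle, had 1.58 FPKM in TES5, 1.57 in TES6 and 1.23 in TES7, against 14.9 in Yak8, 13.2 in Yak9 and 18.01 in Yak10 and fell by 2.73 on the log2 scale. KLHL3, which passes WNK kinases to degradation in the kidney, fell from 7.35 ± 2.05 FPKM in yak to 1.696 ± 0.523 in cattle-yak, and KLHL32 from 5.64 ± 1.17 to 1.59 ± 0.296 (SD, n = 3 each). KLHL1 (ENSBGRG00000006796), a receptor described in neurons, averaged 0.596 ± 0.255 FPKM over the cattle-yak and 5.04 ± 1.197 over the yak libraries (SD, n = 3), a log2 fold change of −1.91. The table gives the symbol KLHL1 to a second gene (ENSBGRG00000004023) whose description names kelch like family member 5, and that gene had 29.7 ± 2.44 FPKM in the cattle-yak and 20.2 ± 3.11 in the yak libraries (SD, n = 3), with a log2 fold change of 0.54 that turned to −0.06 with median-of-ratios scaling.

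The KLHL genes called higher reached moderate levels. KLHL14 (ENSBGRG00000021826) had 11.5 FPKM in TES5, 13.2 in TES6 and 5.46 in TES7, against 0.309 in Yak8, 0.475 in Yak9 and 0.896 in Yak10. It was under 1 FPKM in every yak library and above 5 in every cattle-yak library, with TES7 lower than the others, and its log2 fold change of 2.76 (adjusted p = 4.7e-05 from limma) was the largest rise among the receptors. KLHL23 had 36.1 ± 5.63 FPKM in the cattle-yak and 6.698 ± 1.72 in the yak libraries (SD, n = 3) and KLHL15, which directs a regulatory subunit of protein phosphatase 2A to degradation, 28.5 ± 1.17 FPKM in the cattle-yak and 5.83 ± 1.13 in the yak libraries (SD, n = 3), with log2 fold changes of 2.28 and 2.13. KLHL26 rose by 1.800 and KLHL9 by 1.71. KLHL9 acts with KLHL13 on the mitotic kinase Aurora B, and KLHL13 rose too, from 2.74 ± 0.217 to 8.39 ± 0.657 FPKM (SD, n = 3), by 1.33 (0.81 and no longer called with median-of-ratios scaling). Another testis-rich KLHL gene, KLHL11, was named after its values were seen, since Yak8 (51.7 FPKM) stood above Yak9 (24.0) and Yak10 (30.3), and its log2 fold change of −0.97 was not called.

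For the KBTBD receptors, which also carry BTB and kelch domains, 2 of 6 tested genes rose (33.3%, beside 33.4% of all genes) and limma called none lower (1 at an unadjusted p under 0.05, 0 by voom). KBTBD8 (ENSBGRG00000014548), a CUL3 receptor known from neural crest specification, had 59.2 FPKM in TES5, 53.2 in TES6 and 46.9 in TES7, against 13.7 in Yak8, 14.5 in Yak9 and 13.1 in Yak10. The lowest cattle-yak library had 3.24 times the FPKM of the highest yak library, and the log2 fold change was 1.87 (adjusted p = 2.0e-06 from limma). KBTBD6, which with KBTBD7 controls the RAC activator TIAM1, rose by 1.297 from 1.67 ± 0.455 FPKM (SD, n = 3) in yak, and had 0.83 with median-of-ratios scaling. The 1 gene was KBTBD7, named after its values were seen, with 11.9 ± 0.264 FPKM in the cattle-yak and 19.9 ± 3.92 in the yak libraries (SD, n = 3) and a log2 fold change of −0.68.

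Of the KLHDC receptors 3 of 6 genes were called lower (50%, beside 20.8% of all genes) and none higher by limma (1 higher at an unadjusted p under 0.05, 0 by voom), with a median log2 fold change of −1.32. KLHDC2 and KLHDC3 are receptors of CUL2 that bind proteins by their C-terminal ends, and both were among the most abundant members in yak. KLHDC3 (ENSBGRG00000020528) had 34.4 FPKM in TES5, 24.96 in TES6 and 24.4 in TES7, against 249.7 in Yak8, 277 in Yak9 and 257 in Yak10. KLHDC2 (ENSBGRG00000016910) had 121 FPKM in TES5, 94.1 in TES6 and 78.6 in TES7, against 341 in Yak8, 364 in Yak9 and 371 in Yak10. In both genes every yak library exceeded every cattle-yak library, by at least 7.25 times in KLHDC3 and 2.82 times in KLHDC2, and the log2 fold changes were −3.196 (adjusted p = 4.2e-07) and −1.89 (adjusted p = 7.9e-06, both from limma). KLHDC9 (ENSBGRG00000000928) fell from 36.5 ± 2.02 FPKM to 2.87 ± 0.903 (SD, n = 3 each), with a log2 fold change of −3.300. KLHDC1, a receptor of CUL5 with a related specificity, had 6.26 ± 0.5101 FPKM in the cattle-yak and 11.2 ± 0.994 in the yak libraries (SD, n = 3), and its log2 fold change of −0.74 was not called, but became −1.30 with median-of-ratios and −1.01 with quantile scaling. At the level of the class, 5 of 6 genes were called lower with median-of-ratios scaling, which called 27.9% of all genes lower.

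The F-box proteins, the receptors of CUL1, were called in both directions in every subfamily on the deposited scale. Of those with leucine-rich repeats (FBXL), 10 of 20 were called higher (50%, against 33.4% of all genes) and 1 lower (5%, against 20.8%). Their median was 0.94 (with median-of-ratios scaling 0.48, and 4 called higher, against 17.4% of all genes). Those with WD40 repeats (FBXW) gave 1 of 9 higher (11.1%) and 3 lower (33.3%), with a median of −0.57. Those without either domain (FBXO) gave 14 of 35 higher (40%) and 8 lower (22.9%), with a median of 0.33. No test was made of the difference between subfamilies.

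Of the FBXW genes, FBXW10 (ENSBGRG00000014605) had 2.54 FPKM in TES5, 1.67 in TES6 and 1.01 in TES7, against 37.7 in Yak8, 43.8 in Yak9 and 33.3 in Yak10, a fall by 3.87 on the log2 scale without overlap (adjusted p = 1.2e-06 from limma). FBXW5, which limits the centriole protein SASS6, fell from 72.8 ± 6.29 to 25.7 ± 5.09 FPKM and FBXW9 from 23.9 ± 3.01 to 10.7 ± 0.934 (SD, n = 3 each), with log2 fold changes of −1.48 and −1.08. In the other direction FBXW2 (ENSBGRG00000011027) had 68.9 FPKM in TES5, 74.5 in TES6 and 71.3 in TES7, against 23.2 in Yak8, 18.9 in Yak9 and 22.2 in Yak10 and rose by 1.698 (adjusted p = 2.2e-06 from limma). FBXW7, the receptor of cyclin E, MYC and Notch, had 7.56 ± 1.29 FPKM in the cattle-yak and 11.7 ± 0.217 in the yak libraries (SD, n = 3). Its log2 fold change of −0.57 was not called, although the groups did not overlap, and reached −1.14 and the call with median-of-ratios scaling.

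SKP2 (ENSBGRG00000017074), the receptor of the cell cycle inhibitor p27, led the FBXL genes with 15.1 FPKM in TES5, 18.4 in TES6 and 15.03 in TES7, against 4.08 in Yak8, 3.21 in Yak9 and 4.23 in Yak10. The nearest values of the groups were 3.55 times apart, and the log2 fold change was 1.83 (adjusted p = 8.6e-06 from limma). FBXL6 rose by 1.79, from 3.66 ± 1.09 to 14.8 ± 1.14 FPKM, and FBXL21, which takes part in the turnover of the circadian cryptochromes, by 1.73, from 0.831 ± 0.0917 to 5.12 ± 0.741 (SD, n = 3 each). FBXL13 (ENSBGRG00000011795), the gene called lower, had 0.502 FPKM in TES5, 0.0966 in TES6 and 0.116 in TES7, against 6.37 in Yak8, 7.72 in Yak9 and 9.14 in Yak10. The recovered fragments numbered 22 in TES5, 4 in TES6 and 5 in TES7, against 310, 375 and 440 in the yak libraries, and it fell by 2.82 on the log2 scale. FBXL5, the iron-sensing receptor of the iron regulatory proteins, was the most abundant FBXL gene in both groups, with 113 ± 9.18 FPKM in the cattle-yak and 107 ± 17.5 in the yak libraries (SD, n = 3). Its groups overlapped and its log2 fold change was 0.09 (95% interval −0.22 to 0.39), which became −0.54 with median-of-ratios scaling.

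FBXO39 and FBXO24, of high level in yak, were close to absent in cattle-yak, while the other FBXO genes called lower fell less far. FBXO39 (ENSBGRG00000013642) had 0.7100 FPKM in TES5, 0.282 in TES6 and 0.0453 in TES7, against 109 in Yak8, 113 in Yak9 and 125 in Yak10. The fragments behind these values were 16 in TES5, 6 in TES6 and 1 in TES7, against 2737, 2823 and 3089 in the yak libraries, and the log2 fold change was −6.47 (standard error 0.19, adjusted p = 9.6e-08 from limma). FBXO24 (ENSBGRG00000020581), linked to sperm formation in mice, had 1.12 FPKM in TES5, 1.800 in TES6 and 0.749 in TES7, against 62.2 in Yak8, 53.9 in Yak9 and 61.9 in Yak10. The nearest values of the groups were 29.9 times apart, and the log2 fold change was −4.79 (adjusted p = 2.5e-07 from limma). FBXO15 (ENSBGRG00000021796), known from embryonic stem cells, was among the 10 most abundant members in yak, and fell from 101 ± 4.11 to 30.4 ± 2.56 FPKM (SD, n = 3), by 1.70 on the log2 scale. FBXO48 also fell by 1.70, with Yak8 (13.9 FPKM) above Yak9 (6.95) and Yak10 (8.21).

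FBXO21 (ENSBGRG00000012215) was the most abundant of the FBXO genes in cattle-yak, with 105 FPKM in TES5, 123 in TES6 and 117 in TES7, against 24.3 in Yak8, 26.2 in Yak9 and 28.3 in Yak10. It made up 17.4% ± 1.24 (SD, n = 3) of the FPKM of its class in cattle-yak and 3.803% ± 0.33 in yak, and rose by 2.09 on the log2 scale (adjusted p = 7.6e-07 from limma). FBXO27 and FBXO17 belong to a branch of F-box proteins that bind the sugar chains of glycoproteins. The most abundant of 4 genes named FBXO27 (ENSBGRG00000025071) rose by 2.24, from 0.5303 ± 0.192 to 6.35 ± 1.89 FPKM, and FBXO17 by 1.93, from 3.38 ± 0.949 to 15.4 ± 1.97 (SD, n = 3 each). FBXO9 had 42.8 ± 4.37 FPKM in the cattle-yak and 11.97 ± 1.39 in the yak libraries (SD, n = 3) and rose by 1.76.

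The ASB proteins, which carry ankyrin repeats and a SOCS box, held the largest fall of all members and also some of the largest rises. Of 16 tested genes 2 were called higher (12.5%, against 33.4% of all genes) and 6 lower (37.5%, against 20.8%). Their median of 0.13 turned to −0.47 with median-of-ratios and −0.08 with quantile scaling. ASB17 (ENSBGRG00000003233), a gene of testis-restricted expression, had 0.952 FPKM in TES5, 0.202 in TES6 and 0.194 in TES7, against 146 in Yak8, 134 in Yak9 and 169 in Yak10. Its recovered fragments numbered 10 in TES5, 2 in TES6 and 2 in TES7, against 1707, 1559 and 1950 in the yak libraries. The cattle-yak libraries were near the limit of detection, and the log2 fold change was −6.73 (standard error 0.21, adjusted p = 1.1e-07 from limma). ASB12 (ENSBGRG00000009933) had 0.699 FPKM in TES5, 0.518 in TES6 and 0.5704 in TES7, against 33.8 in Yak8, 27.4 in Yak9 and 28.6 in Yak10, a fall by 4.27 on the log2 scale (adjusted p = 1.4e-07 from limma). In cattle-yak the class was led instead by ASB9 (ENSBGRG00000010217), a receptor of creatine kinase, with 151 FPKM in TES5, 166 in TES6 and 171 in TES7, against 22.4 in Yak8, 22.7 in Yak9 and 30.7 in Yak10. ASB9 made up 52.2% ± 1.35 (SD, n = 3) of the ASB FPKM in cattle-yak and 6.48% ± 0.71 in yak, whereas ASB17 made up 0.149% ± 0.152 and 38.5% ± 1.996. The log2 fold change of ASB9 was 2.65 (adjusted p = 8.1e-07 from limma), and ASB6 (ENSBGRG00000018789) rose by 2.44, from 6.63 ± 1.13 to 40.2 ± 3.59 FPKM (SD, n = 3).

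**Figure D4:**
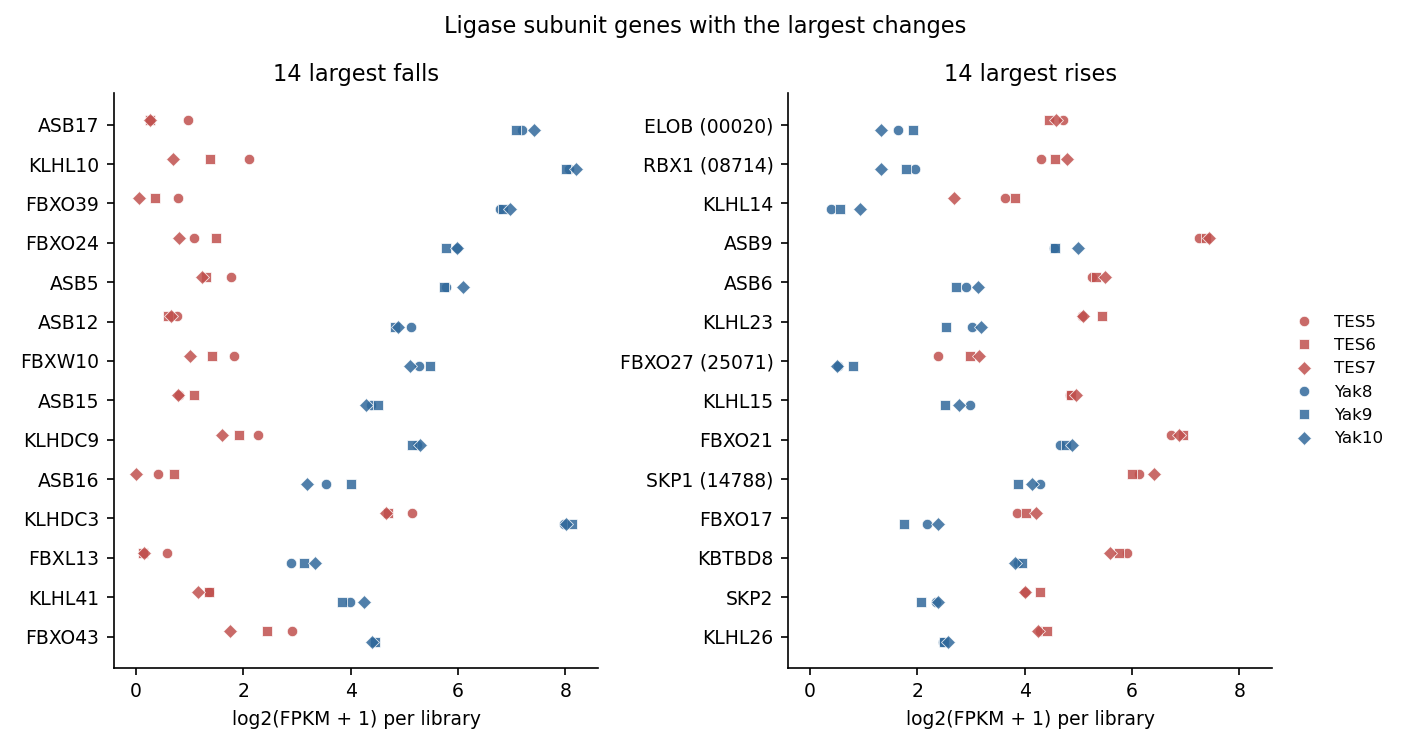
Level in each library, as log2(FPKM + 1), of the 14 members with the largest falls (left) and the 14 with the largest rises (right) among the called ones, ordered by log2 fold change; red symbols are cattle-yak and blue symbols yak libraries. For the 10 largest falls every cattle-yak library is below 3 on this scale, and in no gene do the groups overlap.

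Members on a list of germ cell and meiosis genes did not move as one. Of 11 such genes, all of them tested, 6 were called lower (54.5%, against 20.8% of all genes), namely KLHL10, FBXO43, FBXO24, KLHDC3, ASB17 and FBXO15. Another 4 were called higher (36.4%, against 33.4% of all genes), namely ASB9, FBXO5, FBXO47 and SKP2. FBXW7 was not called, and the list median was −1.70. The list was chosen with earlier results of these data known, so these shares only describe it. FBXO43 (ENSBGRG00000010794), also called EMI2, an inhibitor of the anaphase-promoting complex in the meiotic divisions, had 6.48 FPKM in TES5, 4.43 in TES6 and 2.35 in TES7, against 20.8 in Yak8, 20.9 in Yak9 and 19.97 in Yak10, a fall by 2.07 on the log2 scale (adjusted p = 1.2e-04 from limma). Its paralog FBXO5 (ENSBGRG00000004593), or EMI1, which restrains the same complex in dividing cells, had 17.8 FPKM in TES5, 16.1 in TES6 and 17.9 in TES7, against 3.45 in Yak8, 5.04 in Yak9 and 4.69 in Yak10 and rose by 1.77 (adjusted p = 1.1e-05 from limma). In cattle-yak FBXO5 was thus the higher of the pair in each library, and in yak FBXO43. FBXO47 (ENSBGRG00000013978), which keeps the synaptonemal complex stable in meiotic prophase, had 22.98 FPKM in TES5, 14.5 in TES6 and 25.03 in TES7, against 8.298 in Yak8, 9.11 in Yak9 and 10.4 in Yak10. Its groups did not overlap and it passed the threshold narrowly, at 1.06 (adjusted p = 0.0013 from limma), but not without TES5 (0.97), TES7 (0.91) or Yak8 (0.99), nor with quantile (0.81) or median-of-ratios (0.47) scaling. Beside these genes, all 5 round and all 7 elongating spermatid markers were called lower, and their sums were 12.3 to 50.8 and 19.3 to 90.6 FPKM in cattle-yak against 614 to 682 and 9579 to 11754 in yak, with TXNDC2 at 0 in TES6 and TES7. Of the 8 spermatocyte markers 1 was called higher and 2 lower, with sums of 190 to 330 FPKM in cattle-yak and 411 to 433 in yak. The part of these cells in the values of the members was not tested.

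Some members known from striated muscle were measured in the yak testis and were lower in the hybrid. Of 10 such genes 6 passed the minimum for the test. Of these, 4 were called lower (66.7%, against 20.8% of all genes), namely ASB5, ASB15, KLHL41 and FBXO32. None was called higher by limma, against 33.4% of all genes (1 at an unadjusted p under 0.05, and KLHL40 by voom). This list, too, was chosen with earlier results of these data known, so its shares only describe it. KLHL30, KLHL31, FBXO40 and KBTBD13 stayed under 0.7 FPKM in every library. ASB5 (ENSBGRG00000009021) had 2.41 FPKM in TES5, 1.47 in TES6 and 1.36 in TES7, against 53.6 in Yak8, 52.8 in Yak9 and 67.1 in Yak10, a fall by 4.43 on the log2 scale (adjusted p = 3.1e-07 from limma). ASB15 (ENSBGRG00000024698) had 0.753 FPKM in TES5, 1.11 in TES6 and 0.725 in TES7, against 19.8 in Yak8, 21.8 in Yak9 and 18.4 in Yak10, a fall by 3.50 (adjusted p = 3.8e-07 from limma). FBXO32 (ENSBGRG00000015935), or atrogin-1, which rises in muscle atrophy, had 8.04 FPKM in TES5, 7.43 in TES6 and 7.19 in TES7, against 23.7 in Yak8, 25.7 in Yak9 and 27.4 in Yak10 and fell by 1.64. In all 3 genes the cattle-yak libraries lay close together and far under the yak libraries. KLHL40, which stabilises thin filament proteins, had 1.52 ± 0.0974 FPKM in the cattle-yak and 0.3403 ± 0.0668 in the yak libraries (SD, n = 3) and was not called at 0.91, but was called higher with a pseudocount of 0.1, at 1.89. ASB2 had a log2 fold change of 0.35 (95% interval −0.02 to 0.73). Of 8 markers of skeletal muscle itself 7 were under 1 FPKM in each cattle-yak library and 6 in each yak library. TNNI2 was at 0 in all cattle-yak libraries. The summed level of 5.60 to 13.6 FPKM in cattle-yak and 55.4 to 78.7 in yak was mostly that of the myosin light chain MYLPF. MYLPF had 6.48 ± 3.95 FPKM in the cattle-yak and 61.6 ± 12.3 in the yak libraries (SD, n = 3). It was called lower, with a log2 fold change of −3.17 (adjusted p = 3.1e-05 from limma). The 6 markers of smooth muscle-like myoid cells were all called higher. The part of muscle cells in these values was not tested.

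Ratios between related subunits within a library were taken for 6 pairs on (FPKM + 1), as deposited, with the most abundant gene where a symbol stands on several, and the pair of CUL4B with CUL4A was not analysed here. In each pair the groups did not overlap, and the exact permutation test over the animals (two-sided) gave p = 0.1, also after adjustment over the 6 pairs, the smallest p that 3 animals against 3 allow. The largest shift was that of KLHL10 to its scaffold CUL3, whose log2 ratio was 0.003 ± 0.116 (SD, n = 3) in yak, that is equal levels, and −5.10 ± 0.62 in cattle-yak. FBXO43 to FBXO5 followed, with 2.01 ± 0.24 in yak and −1.83 ± 0.60 in cattle-yak. SKP1 to CUL1, the adaptor to its scaffold, had −0.61 ± 0.16 in yak and 1.53 ± 0.10 in cattle-yak, where the SKP1 value is that of 1 of 5 copies and uncertain. The beta-TrCP proteins FBXW11 and BTRC, which share beta-catenin and the NF-kappaB inhibitor as substrates, moved towards each other. The log2 ratio of FBXW11 to BTRC was −1.73 ± 0.19 in yak and −0.40 ± 0.16 in cattle-yak, a difference of 1.33. On the deposited scale neither gene was called on its own (0.71 and −0.63), but BTRC reached −1.24 and the call with median-of-ratios scaling. KLHDC1 to KLHDC2 differed by 1.14. The smallest shift was that of KLHL13 to KLHL9, with −1.29 ± 0.07 in cattle-yak and −0.91 ± 0.24 in yak.

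**Figure D5:**
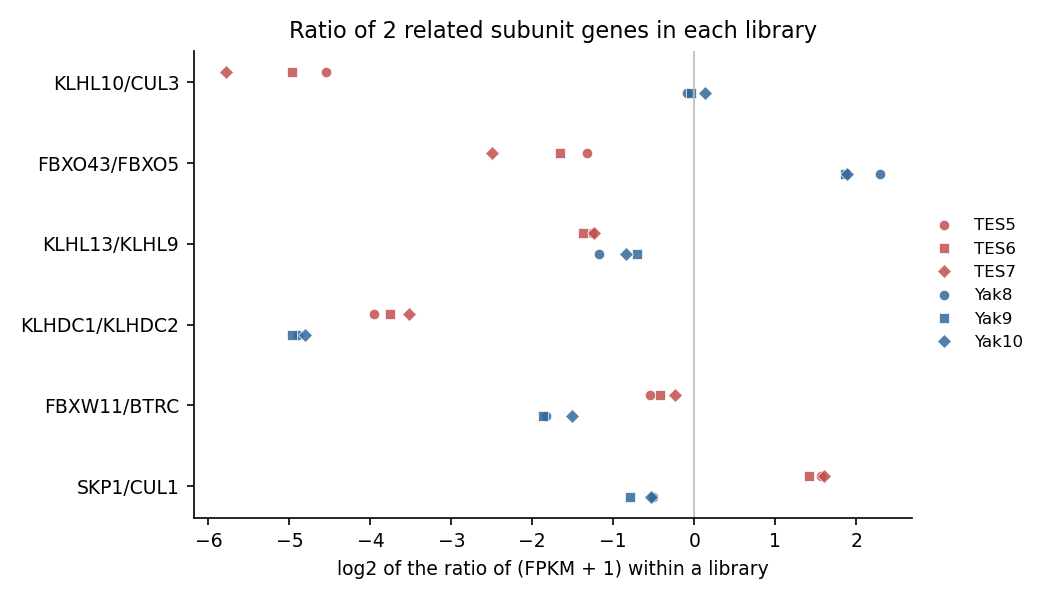
Log2 of the ratio of (FPKM + 1) between 2 related genes in each library, for 6 pairs ordered by the difference between the groups; red symbols are cattle-yak and blue symbols yak libraries, and the grey line marks equal levels. KLHL10/CUL3 and FBXO43/FBXO5 lie lower in each cattle-yak library than in any yak library, and SKP1/CUL1 and FBXW11/BTRC higher.

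On the deposited scale 36 of the 140 tested members had a log2 fold change of at most 0.5 in either direction. The share of all genes within this range was not taken, so the count only describes the members. The 5 smallest changes were those of FBXO45 (0.02, 95% interval −0.28 to 0.31), FBXL14 (0.02, −0.31 to 0.36), FBXO41 (−0.03, −1.004 to 0.95), FBXW8 (0.03, −0.37 to 0.43) and FBXO4 (0.04, −0.25 to 0.33). FBXO45 acts in neurons with the ligase MYCBP2, FBXO4 is a receptor of cyclin D1 and FBXW8 is the partner of CUL7. Their groups overlapped, and with median-of-ratios scaling the values of FBXO45, FBXL14, FBXW8 and FBXO4 lay between −0.59 and −0.51, near the shift of the median of all genes. The interval of FBXO41 was wide, and the yak libraries differed, with 3.84 FPKM in Yak8, 0.34 in Yak9 and 2.77 in Yak10. FBXO7, which works in the parkin pathway, had 40.4 ± 2.07 FPKM in the cattle-yak and 46.9 ± 5.84 in the yak libraries (SD, n = 3) in its more abundant gene (log2 fold change −0.204), and KLHL7 had 18.3 ± 2.71 FPKM in the cattle-yak and 20.3 ± 0.525 in the yak libraries (SD, n = 3) (−0.15). Both genes named FBXL18 rose, by 1.53 and 1.67, and the former had 0.98 with median-of-ratios scaling. A second FBXO27 with 0.25 and the second genes named FBXO7 (−0.27) and KLHL7 (−0.42) were not called, and 2 more genes named FBXO27 were not tested. In all, 16 members were under the minimum for the test.

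Other genes of the pathway were taken from a list of 101 symbols, of which 96 stand in the table and 94 were tested. Of these 20 (21.3%, against 33.4% of all genes) were called higher and 10 (10.6%, against 20.8%) lower, and 64 were not called. Their median log2 fold change was 0.22. With median-of-ratios scaling it was −0.38, with 11 called higher and 25 lower, against 17.4% and 27.9% of all genes. NEDD8 is the ubiquitin-like protein whose attachment switches a cullin on. Of its 12 pathway genes limma called none higher, against 33.4% of all genes (4 at an unadjusted p under 0.05, 0 by voom). It called 2 lower (16.7%, against 20.8% of all genes). DCUN1D1 (ENSBGRG00000001763), which helps to load NEDD8 onto cullins, had 20.5 FPKM in TES5, 19.8 in TES6 and 14.1 in TES7, against 184 in Yak8, 177 in Yak9 and 244 in Yak10. The mean in yak was 11.1 times that in cattle-yak, without overlap, and the log2 fold change was −3.41 (standard error 0.17, adjusted p = 8.2e-07 from limma), larger than that of any cullin. The other, ARIH1, a ligase that works on NEDD8-carrying cullins, was named after its values were seen and fell by 1.26. SENP8 (ENSBGRG00000013949), a protease that matures NEDD8, was listed with the COP9 signalosome, which removes NEDD8 from cullins. It fell from 48.1 ± 2.02 to 13.6 ± 2.05 FPKM (SD, n = 3), by 1.76. The other 8 genes of that list were not called, which left 11.1% called lower, against 20.8% of all genes. Of 5 genes of the exchange factors and inhibitors, CAND1 and CAND2, which swap receptors on a cullin and were named after their values were seen, rose by 1.26 and 1.505. Both were called higher, 40% of that list against 33.4% of all genes.

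Receptors of other families were called in both directions. Of the 23 tested receptors of CUL2 and CUL5 outside the ASB and KLHDC families 8 were called higher (34.8%) and 4 lower (17.4%), close to the 33.4% and 20.8% of all genes. RAB40B (ENSBGRG00000006793), a small GTPase with a SOCS box, had 65.3 FPKM in TES5, 70.4 in TES6 and 69.2 in TES7, against 5.81 in Yak8, 7.13 in Yak9 and 9.896 in Yak10 and rose by 3.03 (adjusted p = 1.2e-06 from limma), more than any ligase subunit described above. ZYG11B, a CUL2 receptor for N-terminal glycine, rose by 2.26, and PRAME, also a CUL2 receptor, by 1.91, although PRAME stands on 9 genes and is uncertain. SOCS7 (ENSBGRG00000017476), a SOCS-box protein of cytokine signalling, fell from 142 ± 6.03 to 26.2 ± 4.48 FPKM (SD, n = 3), by 2.41. Among 22 further BTB receptors of CUL3 8 were called higher (36.4%) and 2 lower (9.09%). KCTD10 rose by 1.89, and BTBD1 (ENSBGRG00000017551) had 67.1 FPKM in TES5, 48.2 in TES6 and 41.5 in TES7, against 255 in Yak8, 286 in Yak9 and 236 in Yak10, a fall by 2.31. Of 19 genes of the CUL4 ligases 2 were called higher (10.5%) and 1 lower (5.26%), both shares under those of all genes. Of 4 further F-box proteins limma called none, with an unadjusted p under 0.05 for 2 that were higher and 2 that were lower, and voom called 1 in each direction.

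The cattle-yak animals differed among themselves in the genes that had fallen. TES5 held the highest value of the cattle-yak libraries in 20 of the 29 members called lower (69.0%, against 66.1% of all genes called lower), and in 11 of the 14 members that fell by more than 2 on the log2 scale (78.6%, against 74.3% of all such genes). KLHL10, with 3.28 FPKM in TES5 and 0.613 in TES7, and FBXO43, with 6.48 and 2.35, are examples, and the yak libraries of these genes lay within a narrow range. The round spermatid markers summed to 50.8 FPKM in TES5, 28.1 in TES6 and 12.3 in TES7, and their part in the spread of the members was not tested. In the 47 members called higher, TES7 was the highest cattle-yak library in 24 (51.1%, against 34.1% of all genes called higher), TES6 in 17 (36.2%, against 47.9%) and TES5 in 6 (12.8%, against 18.0%).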

How the data were processed

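Per the study's methods, the authors trimmed the reads, aligned those of both groups by HISAT2 to LU_Bosgru_v3.0, a yak genome, and calculated FPKM with Cufflinks (versions are not given in the sources used here). The deposited FPKM table holds 1 value per gene and animal, which is relative to gene length and sequencing depth and was not scaled between libraries. The members and gene lists were chosen with earlier results of these data known. Genes with a mean of at least 0.5 FPKM entered limma 3.58.1 (lmFit and eBayes with a trend, two-sided) in R 4.3.3 as log2(FPKM + 1), over the whole table. The whole fragments behind the values were worked out from the steps between FPKM of a gene in different libraries. Both steps were tested on simulated data. The animals are the replicates, and p-values rest on 3 per group. Named in the text are every cullin, RING and adaptor gene, the called genes with the largest changes in each class (up to 5 per direction for KLHL and FBXO, up to 3 for the others), the genes of the 2 lists of known roles, the 5 smallest changes, every copy of a repeated symbol, the genes of the pairs, the 10 most abundant members of each group and the 4 largest changes per direction among the other pathway genes, as well as a few that are marked. Tables were handled with Python 3.11.15, pandas 2.3.3 and scipy 1.17.1, and plots drawn with matplotlib 3.10.9. A pseudocount of 0.1, no filter, median-of-ratios and quantile scaling, limma without a trend, voom on the recovered fragments and the omission of each animal were tried as alternatives. No sequence was used here. A further pair that had been planned is not reported here.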

Additional observations from a re-analysis of the deposited data

How the results depend on the processing

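No paired analysis was possible because the labels give the groups no shared replicate numbers. Median-of-ratios scaling moved the counts most, to 26 members called higher against 47, and to 11 of the other pathway genes called higher and 25 lower against 20 and 10. With this scaling all 26 were among the 47, all 29 members called lower remained so, and 9 more were called lower. Over all genes it called 17.4% higher and 27.9% lower (33.4% and 20.8% as reported). In that setting 7 KLHL, 4 FBXL, 7 FBXO, 3 RING and adaptor and 1 KBTBD gene were called higher (11, 10, 14, 6 and 2 as reported), and 5 KLHDC, 5 FBXW, 2 RING and adaptor and 1 KBTBD gene lower (3, 3, 1 and 0 as reported). ASB genes called higher numbered 4 with a pseudocount of 0.1 and with voom, against 2. Without 1 animal, 46 to 48 members were called higher and 28 to 30 lower, and 20 to 21 and 10 to 13 of the other pathway genes. No called member changed its sign under any of the 12 alternatives, and neither did the difference of any of the 6 pairs under the 7 alternatives run for them. Of 1044 log2 fold changes of 87 named genes under the alternatives, 997 kept their direction and their side of the threshold and 27 had another sign, all of genes that were not called. With median-of-ratios scaling these were the SKP1 gene ENSBGRG00000016227 (−0.31), FBXO45 (−0.57), FBXL14 (−0.51), FBXW8 (−0.59), FBXO4 (−0.52), FBXL5 (−0.54) and the KLHL1 gene described as member 5 (−0.063). With quantile scaling they were the same SKP1 gene (−0.057), FBXO45 (−0.26), FBXL14 (−0.25) and FBXO4 (−0.27). FBXO41 became 0.19 with a pseudocount of 0.1 and 0.26 with voom. With 1 animal left out the range was −0.057 to 0.084 for FBXO45, −0.031 to 0.12 for FBXL14, −0.58 to 0.34 for FBXO41, −0.17 to 0.19 for FBXW8, −0.0018 to 0.11 for FBXO4, −0.0021 to 0.21 for FBXL5, −0.13 to 0.52 for the FBXO27 gene ENSBGRG00000025101 and −0.62 to 0.11 for the FBXO7 gene ENSBGRG00000013450. The cause of these shifts was not tested.

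Precision is set by 3 animals per group and, in cattle-yak, by few fragments for the genes with the largest falls, whose fold changes depend on the pseudocount. How reads shared by copies of SKP1, ELOB, RBX1 and FBXO27 were counted is not given in the sources used here. Hybrid reads of cattle alleles were mapped to the yak genome, and any loss of such reads was not measured here. Place and way of collection coincided with the groups and cannot be told apart from the cross.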
